A study of Mus musculus with 15 samples.

Results

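The genes described here are those of antigen presentation to helper T cells: the MHC class II chain genes H2-Aa, H2-Ab1 and H2-Eb1, the peptide-loading genes H2-DMa and H2-DMb1, the invariant chain gene Cd74, the class II regulator Ciita, and the costimulatory genes Cd80, Cd86 and Cd40. The 10 genes were looked up by current or earlier symbol among array probe sets that list exactly 1 gene symbol. Of them 9 were found, each with 1 probe set, among 22180 genes measured in this way. Cd74 was not, because its probe set lists a microRNA gene as well, and that probe set is described separately. The samples were carotid arteries of female C57Bl/6J mice aged 21 to 22 weeks, taken 5 days after the left common carotid artery had been ligated. They form 4 groups: Has3-deficient ligated arteries (n = 3), Has3-deficient non-ligated arteries (n = 4), wildtype ligated arteries (n = 4) and wildtype non-ligated arteries (n = 4). Has3 encodes a hyaluronan synthase, and the labels state neither the kind of allele nor whether each array holds a separate animal, so the p-values below cover array-to-array spread, which may be technical.

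MHC class II molecules are pairs of an alpha and a beta chain that display peptides from endocytosed proteins to CD4 T cells. They are made mainly by dendritic cells, macrophages and B cells, and other cells can be induced to make them by interferon gamma through Ciita. A T cell that recognises such a peptide needs a second signal, given by Cd80 and Cd86 through Cd28, while Cd40 receives the activating signal of Cd40 ligand from the T cell. In ligated arteries, leukocytes enter the vessel wall during remodelling.

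Class II genes carry conserved promoter boxes, the X box bound by the RFX complex, the adjacent X2 box and the Y box bound by NF-Y, on which Ciita is assembled as a coactivator. Promoters were looked up in RefSeq (assembly GRCm38.p6), in windows of 300 bases that run from 250 bases before to 50 bases after the start of the gene. The table held 6 promoters of 5 members, H2-Aa, H2-Eb1, H2-DMa, H2-DMb1 and Cd80. Boxes were searched on both strands, with letters chosen after the promoters had been read: AACTGATG as a core of the X box, TGACGTCA as the X2 box and ATTGG as the Y box. The following promoters are shown because they hold an X or X2 box and a Y box, in capitals, with H2-Aa at chr17:34287774-34288073 on the minus strand, H2-Eb1 at chr17:34305617-34305916 on the plus strand and H2-DMb1 at chr17:34152941-34153240 on the plus strand.
H2-Aa: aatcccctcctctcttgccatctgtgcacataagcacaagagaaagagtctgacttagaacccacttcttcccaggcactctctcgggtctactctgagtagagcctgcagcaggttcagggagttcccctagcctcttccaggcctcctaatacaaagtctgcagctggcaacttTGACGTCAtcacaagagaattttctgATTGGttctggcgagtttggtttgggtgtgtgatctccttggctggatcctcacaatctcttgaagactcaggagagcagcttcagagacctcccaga
H2-Eb1: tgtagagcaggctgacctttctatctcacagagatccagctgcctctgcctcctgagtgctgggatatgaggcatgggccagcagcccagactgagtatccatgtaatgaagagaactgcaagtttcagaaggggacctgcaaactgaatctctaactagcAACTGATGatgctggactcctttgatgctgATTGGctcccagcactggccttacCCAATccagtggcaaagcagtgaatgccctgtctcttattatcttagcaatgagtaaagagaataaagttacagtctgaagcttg
H2-DMb1: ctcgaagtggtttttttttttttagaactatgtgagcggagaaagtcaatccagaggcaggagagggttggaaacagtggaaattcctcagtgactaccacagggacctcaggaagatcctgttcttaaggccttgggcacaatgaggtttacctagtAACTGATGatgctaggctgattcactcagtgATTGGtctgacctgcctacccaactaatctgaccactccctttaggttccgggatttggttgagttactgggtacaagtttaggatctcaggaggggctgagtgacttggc
In H2-Aa the X2 box began 74 bases before the start and the Y box 48 bases before it, 26 bases apart. In H2-Eb1 the X box core and the Y box lay 30 bases apart, and in H2-DMb1 31 bases apart. The H2-Eb1 window also held a Y box on the other strand, 35 bases before the start. Among 32851 promoters of this length, 0.776% held the X box core, 1.79% the X2 box, 37.4% the Y box and 0.292% both the X box core and the Y box. None of the boxes was found in the Cd80 promoter or in the first H2-DMa promoter, and the second H2-DMa promoter held a Y box alone. Such matches describe letters in a window and not binding.

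The deposited values are on a log2 scale and are centred on the median of each probe set over the 15 arrays, so that 0 is the median array of that gene and levels cannot be compared between genes. The Has3 probe set did not separate the genotypes: it differed by -0.20 ± 0.16 (log2 ± SE, Has3-deficient minus wildtype) in ligated arteries and by 0.09 ± 0.14 in non-ligated ones. Whether it lies in the altered part of the gene is not given in the sources used here, and the genotype names follow the labels. Of 8 smooth muscle markers, 6 carried the storage trace of the brightest values, against 17.8% of all genes. The mean of 10 neuron and chromaffin cell markers was 4.38, 1.85 and 1.32 in Has3-deficient non-ligated arrays 3, 4 and 1, and 2.56 in wildtype non-ligated array 2, while it lay between -0.34 and 0.46 in the other 11 arrays. Calls and signs that change when these 4 arrays are left out are given with the comparison concerned. In whole arteries, fewer cells of a type and less RNA per cell cannot be told apart.

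Ligation was followed by higher values of nearly all members in both genotypes. In Has3-deficient arteries 8 of 9 members were higher in ligated arteries (adjusted p under 0.05 over all 22180 genes, limma), against 10.2% of all genes. In wildtype arteries 9 of 9 were higher, against 13.2% of all genes. The median log2 change of the members was 1.499 in Has3-deficient and 1.44 in wildtype arteries, while the median over all genes was -0.0295 in Has3-deficient and 0.0055 in wildtype arteries. Ligated and non-ligated arrays did not overlap for 8 of 9 members in each genotype, all with the ligated arrays higher, against 13% of all genes in Has3-deficient and 14% in wildtype arteries. The changes ran from 0.19 to 3.24 in Has3-deficient and from 0.25 to 3.16 in wildtype arteries, with Cd80 at the top and H2-DMb1 at the bottom of both.

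**Figure D1:**
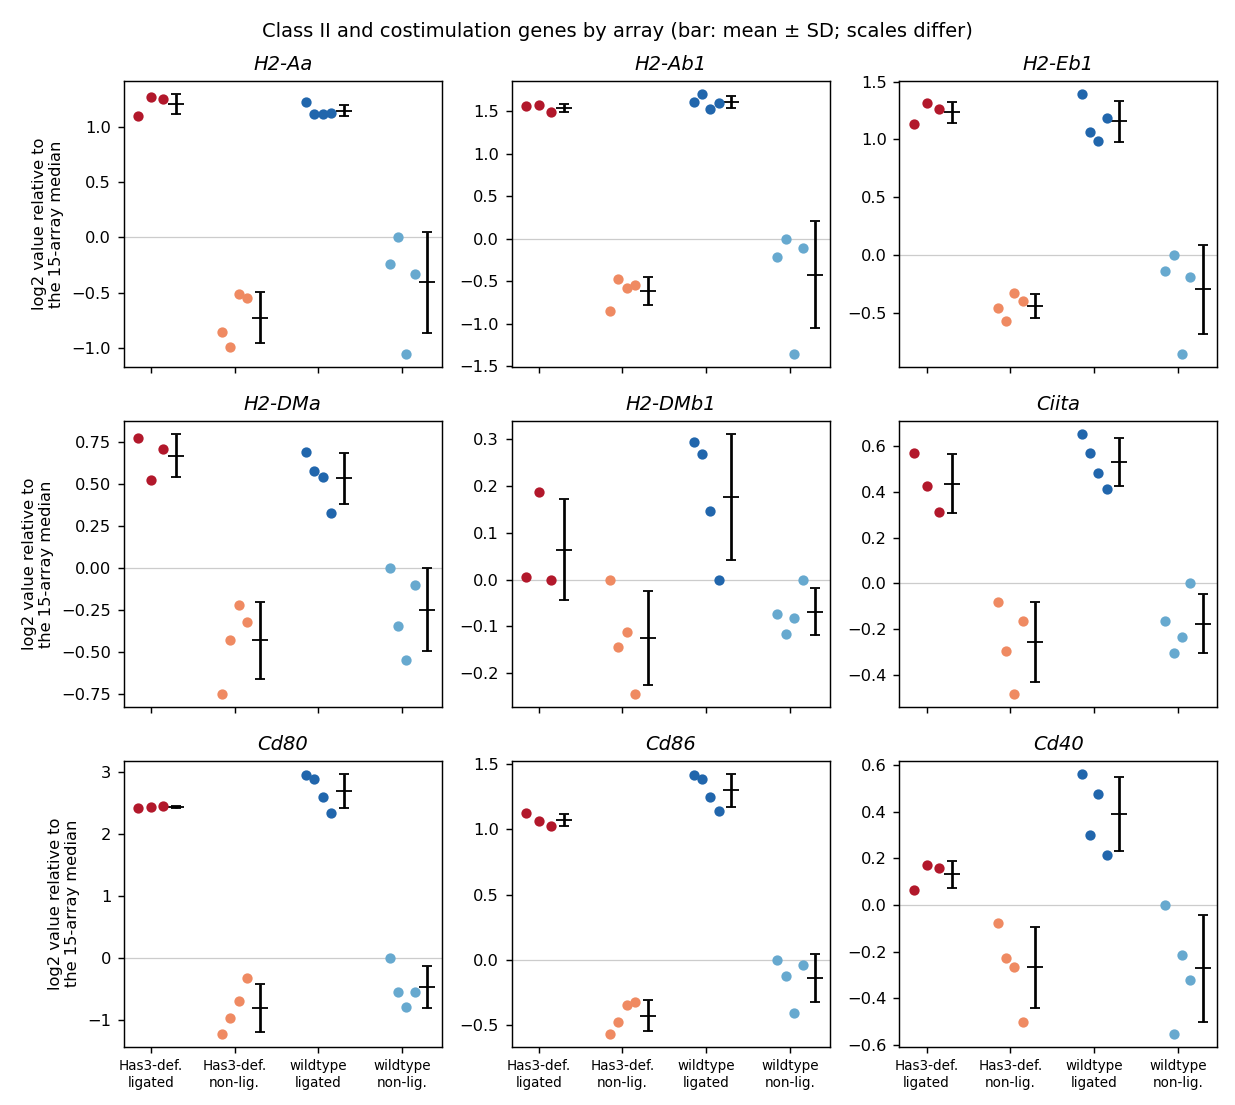
Log2 value of each member, relative to its median over 15 arrays, in every array of the 4 groups; each point is 1 array, the bars give the group mean ± SD, and the scales differ between genes. Cd80 lies between 2.34 and 2.95 in all 7 ligated arrays and at or below 0 in all 8 non-ligated ones, while the H2-DMb1 groups overlap.

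H2-Aa encodes the alpha chain of the I-A molecule. It stood at 1.10, 1.27 and 1.25 in Has3-deficient ligated arteries, against -0.86, -0.99, -0.52 and -0.55 in Has3-deficient non-ligated arteries. Wildtype ligated arteries had 1.22, 1.12, 1.11 and 1.13, against -0.24, 0, -1.06 and -0.33 in wildtype non-ligated arteries. All ligated arrays were above all non-ligated ones, and wildtype non-ligated array 3 was the lowest of all. The gene was 3.82-fold higher after ligation in Has3-deficient arteries (log2 change 1.93 ± 0.19 SE, adjusted p = 5.11e-06) and 2.94-fold higher in wildtype arteries (1.55 ± 0.18, adjusted p = 1.28e-05).

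H2-Ab1, the beta chain that pairs with H2-Aa, had 1.57, 1.58 and 1.49 in Has3-deficient ligated arteries, against -0.85, -0.47, -0.58 and -0.55 in the non-ligated ones. In wildtype, ligated arteries had 1.61, 1.71, 1.53 and 1.60, against -0.21, 0, -1.36 and -0.11 in non-ligated arteries. The ligated arrays lay within a narrow band, and array 3 of the wildtype non-ligated group again stood below the rest. Ligation went with a 4.46-fold higher value in Has3-deficient arteries (2.16 ± 0.24, adjusted p = 1.66e-05) and a 4.09-fold higher value in wildtype arteries (2.03 ± 0.22, adjusted p = 9.06e-06).

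H2-Eb1 encodes the beta chain of the I-E molecule, whose alpha chain gene H2-Ea is not expressed in C57BL/6 mice. It had 1.14, 1.31 and 1.26 in Has3-deficient ligated arteries, against -0.46, -0.57, -0.33 and -0.40 in the non-ligated ones. In wildtype the values were 1.39, 1.06, 0.98 and 1.19 in ligated arteries, against -0.14, 0, -0.86 and -0.19 in wildtype non-ligated arteries. No ligated array reached down to a non-ligated one. The change was 3.19-fold in Has3-deficient arteries (1.67 ± 0.16, adjusted p = 4.43e-06) and 2.74-fold in wildtype arteries (1.45 ± 0.15, adjusted p = 5.75e-06). H2-Ea, the partner gene, was added after its values were seen. It had log2 changes of 0.011 ± 0.056 in Has3-deficient arteries (adjusted p = 0.930) and 0.051 ± 0.052 in wildtype arteries (adjusted p = 0.553), and passed in neither.

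The probe set that lists Cd74, the invariant chain that fills the class II groove until peptide is loaded, together with Mir5107 behaved in the same range. Its values were 1.20, 1.31 and 1.15 in Has3-deficient ligated arteries, against -0.80, -0.44, -0.42 and -0.34 in the non-ligated ones. Wildtype ligated arteries had 1.17, 1.16, 1.26 and 1.11, against 0, -0.07, -0.61 and -0.16 in wildtype non-ligated arteries. In a fit over all 33793 probe sets it was 3.30-fold higher after ligation in Has3-deficient arteries (1.72 ± 0.13, adjusted p = 7.73e-07) and 2.61-fold higher in wildtype arteries (1.39 ± 0.12, adjusted p = 2.27e-06). Which of its 2 listed genes gives the signal was not tested.

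H2-DMa and H2-DMb1 form the H2-DM dimer, which exchanges the invariant chain fragment for peptide. H2-DMa had 0.77, 0.52 and 0.71 in Has3-deficient ligated arteries, against -0.75, -0.43, -0.22 and -0.32 in the non-ligated ones. In wildtype the values were 0.69, 0.58, 0.54 and 0.32 in ligated arteries, against 0, -0.35, -0.55 and -0.10 in non-ligated arteries. The groups did not overlap in either genotype, and H2-DMa was 2.14-fold higher in Has3-deficient (1.10 ± 0.14, adjusted p = 7.81e-05) and 1.72-fold higher in wildtype arteries (0.78 ± 0.13, adjusted p = 0.00043).

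H2-DMb1 changed least. Has3-deficient ligated arteries had 0.0048, 0.19 and 0, against 0, -0.15, -0.11 and -0.245 in the non-ligated ones, and the groups touched. Wildtype ligated arteries had 0.29, 0.27, 0.15 and 0, against -0.07, -0.12, -0.08 and 0 in wildtype non-ligated arteries. The change of 0.19 ± 0.08 in Has3-deficient arteries did not pass (adjusted p = 0.127), and that of 0.25 ± 0.07 in wildtype arteries passed (adjusted p = 0.0223). The wildtype call was lost after quantile normalization (0.22, adjusted p = 0.0502), without the 4 arrays high in neuron markers (0.23, adjusted p = 0.0610), and without wildtype non-ligated array 2 or wildtype ligated arrays 1 or 2 (adjusted p 0.0607, 0.0722 and 0.0701). H2-DMb2 is a near-identical copy, so that some probes may not tell the 2 genes apart, but their values changed to different degrees. H2-DMb2, added after its values were seen, had log2 changes of 0.87 ± 0.19 in Has3-deficient and 0.82 ± 0.17 in wildtype arteries (adjusted p = 0.00467 and 0.00253).

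Ciita, the coactivator without which class II genes are silent, had 0.57, 0.43 and 0.31 in Has3-deficient ligated arteries, against -0.08, -0.30, -0.49 and -0.17 in the non-ligated ones. The wildtype values were 0.66, 0.57, 0.49 and 0.41 in ligated arteries, against -0.17, -0.305, -0.24 and 0 in wildtype non-ligated arteries. All 7 ligated arrays were above 0 and none of the non-ligated ones was. The gene was 1.62-fold higher in Has3-deficient arteries (0.695 ± 0.10, adjusted p = 0.000239) and 1.63-fold higher in wildtype arteries (0.71 ± 0.09, adjusted p = 5.81e-05).

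Cd80 showed the largest change of the members. Its values were 2.42, 2.43 and 2.45 in Has3-deficient ligated arteries, against -1.23, -0.98, -0.70 and -0.32 in the non-ligated ones. In wildtype they were 2.95, 2.89, 2.60 and 2.34 in ligated arteries, against 0, -0.55, -0.79 and -0.56 in non-ligated arteries. The groups lay more than 2 log2 units apart, and Cd80 was 9.47-fold higher in Has3-deficient (3.24 ± 0.21, adjusted p = 1.13e-07) and 8.96-fold higher in wildtype arteries (3.16 ± 0.20, adjusted p = 5.09e-08). By log2 change it ranked 51 in Has3-deficient and 65 in wildtype arteries among 22180 genes.

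Cd86, the second ligand of Cd28, had 1.12, 1.07 and 1.03 in Has3-deficient ligated arteries, against -0.57, -0.48, -0.35 and -0.32 in the non-ligated ones. Wildtype ligated arteries had 1.42, 1.39, 1.25 and 1.14, against 0, -0.12, -0.41 and -0.04 in wildtype non-ligated arteries. The spread within groups was small next to the change, which was 2.83-fold in Has3-deficient (1.499 ± 0.10, adjusted p = 1.25e-07) and 2.71-fold in wildtype arteries (1.44 ± 0.09, adjusted p = 6.39e-08).

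Cd40 had 0.063, 0.17 and 0.16 in Has3-deficient ligated arteries, against -0.079, -0.23, -0.27 and -0.50 in the non-ligated ones. Wildtype ligated arteries had 0.56, 0.30, 0.48 and 0.22, against 0, -0.55, -0.22 and -0.32 in wildtype non-ligated arteries. The groups did not overlap, but the distance was small, most of all in Has3-deficient arteries. Cd40 was 1.32-fold higher in Has3-deficient (0.40 ± 0.13, adjusted p = 0.0395) and 1.58-fold higher in wildtype arteries (0.66 ± 0.12, adjusted p = 0.000567). The Has3-deficient call was lost without the 4 arrays high in neuron markers (0.36), which leaves 1 Has3-deficient non-ligated array. It was also lost in a fit over all probe sets (adjusted p = 0.0506) and when any of 8 single arrays was left out. These were Has3-deficient ligated arrays 3, 5 and 6, Has3-deficient non-ligated arrays 2, 3 and 4 and wildtype non-ligated arrays 3 and 4, with changes of 0.32 to 0.43 and adjusted p up to 0.118.

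**Figure D2:**
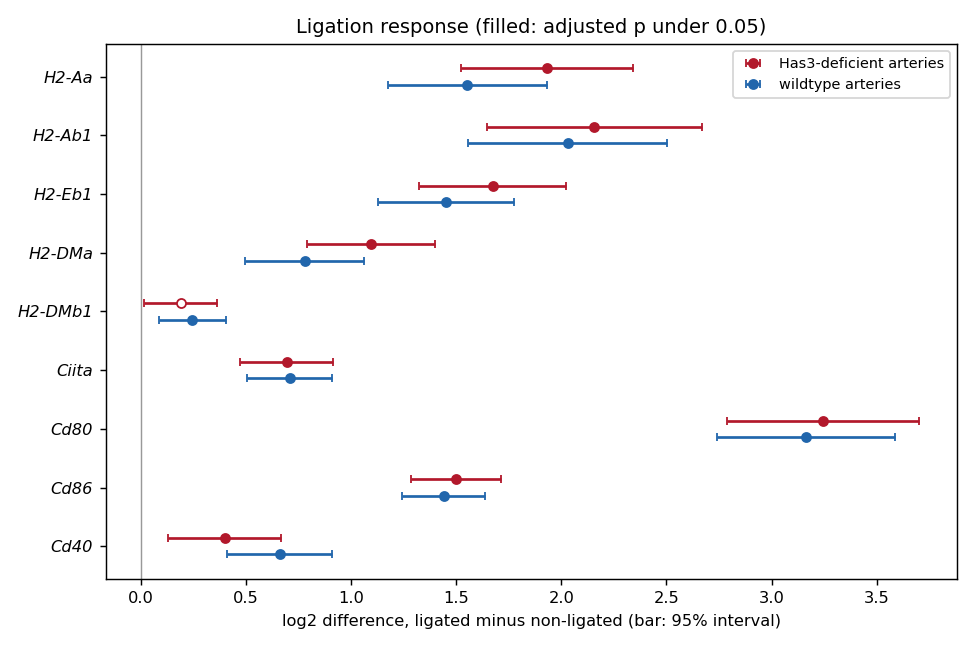
Log2 change after ligation, with its 95% interval, for each of the 9 members in Has3-deficient and in wildtype arteries; filled points have an adjusted p under 0.05. Cd80 lies at 3.24 in Has3-deficient and 3.16 in wildtype arteries and H2-DMb1 at 0.19 in Has3-deficient and 0.25 in wildtype arteries, and the members stand in the same order in both genotypes.

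No member passed between the genotypes. In ligated arteries 0 of 9 passed, where 0% of all genes did (limma; 910 genes had an unadjusted p under 0.05), and the member differences, Has3-deficient minus wildtype, ran from -0.26 to 0.13 with a median of -0.094. In non-ligated arteries 0 of 9 passed, against 0.0857% of all genes. There the differences ran from -0.34 to 0.004 and 8 of 9 were negative, while 54.1% of all genes had a positive difference. Several members varied together within groups, as described below, so their signs are not independent of each other. The monocyte and macrophage marker mean was -0.50 ± 0.31 in Has3-deficient and -0.19 ± 0.17 in wildtype non-ligated arteries (SD, n = 4 each), and its part in these differences was not tested. The class II chains in ligated arteries differed by 0.06 (95% interval -0.35 to 0.46) for H2-Aa, by -0.07 (-0.58 to 0.45) for H2-Ab1 and by 0.08 (-0.27 to 0.43) for H2-Eb1. The intervals are not adjusted for the number of genes.

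Among the costimulatory genes, 2 members had Has3-deficient ligated arrays wholly below the wildtype ligated ones, which held for 3.35% of all genes, while 6.9% of all genes were separated one way or the other. Cd86 had 1.03 to 1.12 in Has3-deficient and 1.14 to 1.42 in wildtype ligated arteries, a difference of -0.23 ± 0.10 (95% interval -0.44 to -0.013, limma adjusted p = 0.9999). Cd40 had 0.063 to 0.17 in Has3-deficient and 0.22 to 0.56 in wildtype ligated arteries, a difference of -0.26 ± 0.13 (-0.53 to 0.011, adjusted p = 0.9999). Marker lists were set beside these groups. The smooth muscle mean was -0.36 ± 0.09 in Has3-deficient ligated (n = 3) and -0.64 ± 0.20 in wildtype ligated arteries (SD, n = 4). The fat mean was 0.067 ± 0.40 in Has3-deficient and -0.81 ± 0.72 in wildtype ligated arteries. For both means the arrays of the groups overlapped, and no marker of either list passed between them. The part of these lists in the member differences was not tested. In non-ligated arteries Cd86 differed by -0.285 ± 0.092 (-0.48 to -0.087, adjusted p = 0.199), with overlapping groups, and Cd40 by 0.0040 ± 0.12 (-0.25 to 0.25). The Cd80 difference was -0.26 ± 0.21 in ligated and -0.34 ± 0.20 in non-ligated arteries. None of these passed. After quantile normalization the differences in ligated arteries were -0.10 for Cd86 and -0.090 for Cd80. Leaving out the 4 arrays high in neuron markers keeps only 1 Has3-deficient non-ligated array. The differences in non-ligated arteries were then -0.53 for Cd80, -0.047 for Cd40 and 0.088 for H2-Ab1, against -0.19 for H2-Ab1 with all arrays.

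The difference between the ligation responses, Has3-deficient minus wildtype, was also tested directly. Of 9 members 0 passed, where 0% of all genes did (1802 genes had an unadjusted p under 0.05). The largest differences were 0.38 ± 0.26 for H2-Aa (95% interval -0.18 to 0.93, adjusted p = 0.737), 0.32 ± 0.19 for H2-DMa (-0.10 to 0.73, adjusted p = 0.707) and -0.26 ± 0.17 for Cd40 (-0.63 to 0.10, adjusted p = 0.723). For Ciita it was -0.01 ± 0.14 (-0.31 to 0.29). The H2-Aa value was 0.24 without wildtype non-ligated array 2 and 0.595 without wildtype non-ligated array 3, the H2-DMa value 0.21 without Has3-deficient non-ligated array 1 and the Cd40 value -0.17 without wildtype non-ligated array 2. Without the 4 arrays high in neuron markers, which leaves 1 Has3-deficient non-ligated array, the interaction was -0.15 for H2-Ab1, against 0.13 with them. For Ciita it was then 0.071.

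**Figure D3:**
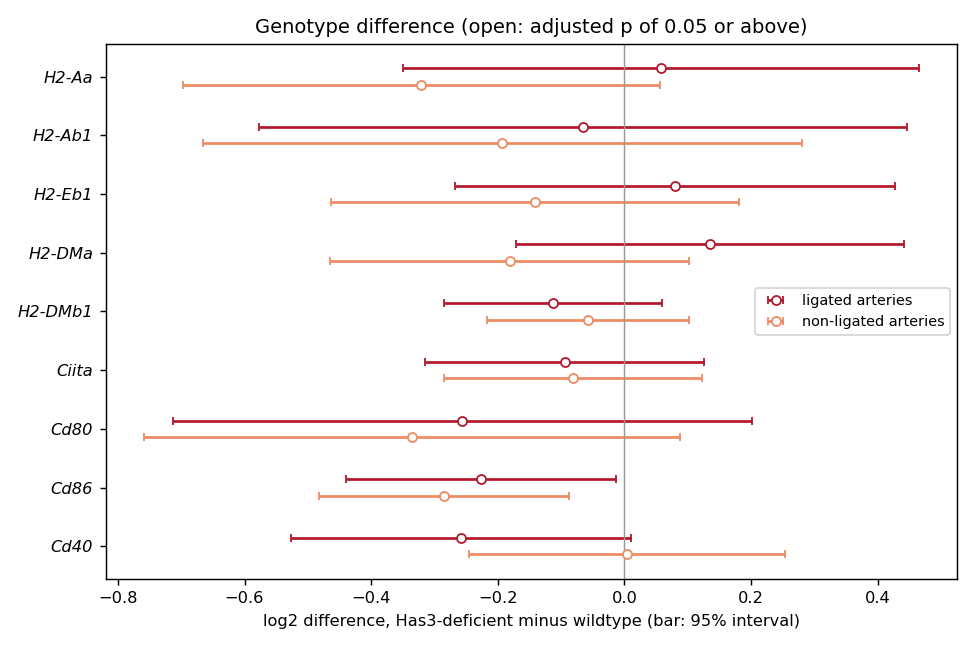
Log2 difference between Has3-deficient and wildtype arteries, with its 95% interval, for each member in ligated and in non-ligated arteries. No member passed; Cd86 lies at -0.23 in ligated and -0.285 in non-ligated arteries, and the class II chains have intervals that include 0.

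The wider class II pathway was described through a list of 18 other genes, all measured. List counts can be read against all genes, of which 10.2% were higher and 8.08% lower after ligation in Has3-deficient arteries, and 13.2% higher and 14.6% lower in wildtype arteries. After ligation 7 were higher and 0 lower in Has3-deficient arteries (median log2 change 0.11), and 9 were higher and 2 lower in wildtype arteries (median 0.27). Ifi30, a thiol reductase of the endosome, rose by 2.00 ± 0.06 in Has3-deficient and 1.93 ± 0.05 in wildtype arteries, and the proteases Lgmn and Ctsl rose by 1.43 and 1.48 in Has3-deficient arteries and by 1.69 and 1.48 in wildtype arteries. Rfx5 and Rfxank, subunits of the complex on the X box, fell in wildtype arteries by 0.35 and 0.27 (adjusted p = 0.00471 and 0.0201). In Has3-deficient arteries they had -0.10 and -0.08 and did not pass (adjusted p = 0.514 and 0.578). Ctss, the invariant chain protease, was picked after its values were seen: it rose by 3.60 ± 0.32 in Has3-deficient and 3.43 ± 0.30 in wildtype arteries.

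Other ligands of T cell costimulation and inhibition moved as well. Of 16 measured, 10 were higher and 0 lower in Has3-deficient arteries (median 0.81), and 10 were higher and 1 lower in wildtype arteries (median 0.66). Cd48, Vsir and Cd276 rose by 2.20, 1.71 and 1.20 in Has3-deficient arteries and by 2.03, 1.74 and 1.41 in wildtype arteries. Tnfsf18, the ligand of the receptor GITR, had -0.15 in Has3-deficient arteries (adjusted p = 0.341) and fell by 0.55 in wildtype arteries. On the T cell side, 4 of 14 measured partners were higher in Has3-deficient and 3 in wildtype arteries. Tnfrsf9, an activation receptor, rose by 1.43 in Has3-deficient and 1.64 in wildtype arteries, and Cd4 by 0.44 in Has3-deficient and 0.41 in wildtype arteries. Of 11 genes of Cd40 signalling, 8 were higher in Has3-deficient and 7 in wildtype arteries, and the NF-kappa-B subunit Rel rose by 1.94 in Has3-deficient and 1.95 in wildtype arteries. Traf5, an adaptor of the Cd40 receptor, had -0.30 in Has3-deficient arteries (adjusted p = 0.259) and fell by 0.67 in wildtype arteries (adjusted p = 0.00454). Of 14 interferon gamma pathway genes, 8 were higher in each genotype, and the transcription factor Irf8 rose by 0.92 in Has3-deficient and 0.98 in wildtype arteries. Gbp4 had -0.31 in Has3-deficient arteries (adjusted p = 0.284) and fell by 0.96 in wildtype arteries. Of 14 MHC class I pathway genes, 7 were higher in Has3-deficient and 9 in wildtype arteries, and the peptide transporter gene Tap1 rose by 0.89 in Has3-deficient and 0.94 in wildtype arteries. No gene of these lists passed in a genotype or interaction comparison.

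Markers of cells that carry class II moved with ligation, and their part in the member changes was not tested. Of 16 monocyte and macrophage markers, 12 were higher in each genotype and 2, Timd4 and Lyve1, were lower in wildtype arteries (median change 1.58 in Has3-deficient and 1.35 in wildtype arteries), and the list mean was 1.10 to 1.18 in Has3-deficient ligated, -0.82 to -0.08 in Has3-deficient non-ligated, 1.05 to 1.29 in wildtype ligated and -0.39 to -0.0012 in wildtype non-ligated arteries. Itgam rose by 3.83 in Has3-deficient and 3.62 in wildtype arteries, and Adgre1 by 2.53 in Has3-deficient and 2.22 in wildtype arteries. Of 13 dendritic cell markers 7 were higher in each genotype, and the list mean was 0.52 to 0.65 in Has3-deficient ligated, -0.26 to -0.14 in Has3-deficient non-ligated, 0.50 to 0.69 in wildtype ligated and -0.20 to -0.0084 in wildtype non-ligated arteries. Itgax rose by 3.52 in Has3-deficient and 3.42 in wildtype arteries. Siglech, a marker of plasmacytoid dendritic cells, had -0.13 in Has3-deficient arteries (adjusted p = 0.706) and was the 1 marker of the list that fell in wildtype arteries, by 0.62 (adjusted p = 0.0113). Of 11 B cell markers only Cd22 passed, by 1.31 in Has3-deficient and 1.14 in wildtype arteries. Their list mean was 0.017 to 0.094 in Has3-deficient ligated, -0.18 to -0.046 in Has3-deficient non-ligated, 0.060 to 0.19 in wildtype ligated and -0.11 to 0.22 in wildtype non-ligated arteries. Smooth muscle markers went the other way: 8 of 8 fell in Has3-deficient and 7 of 8 in wildtype arteries, and Lmod1 had -1.04 in Has3-deficient and -1.53 in wildtype arteries. Of 8 endothelial markers 3 were higher and 2 lower in Has3-deficient, 3 higher and 3 lower in wildtype arteries; of 7 fat markers 1 was lower in Has3-deficient and 4 in wildtype arteries. Of 4 lymph node stroma markers 0 passed in Has3-deficient and 1, Glycam1, was higher in wildtype arteries, and none of 10 neuron and chromaffin markers passed in either. Since levels are lost by centring, which of these markers are near background cannot be seen.

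**Figure D4:**
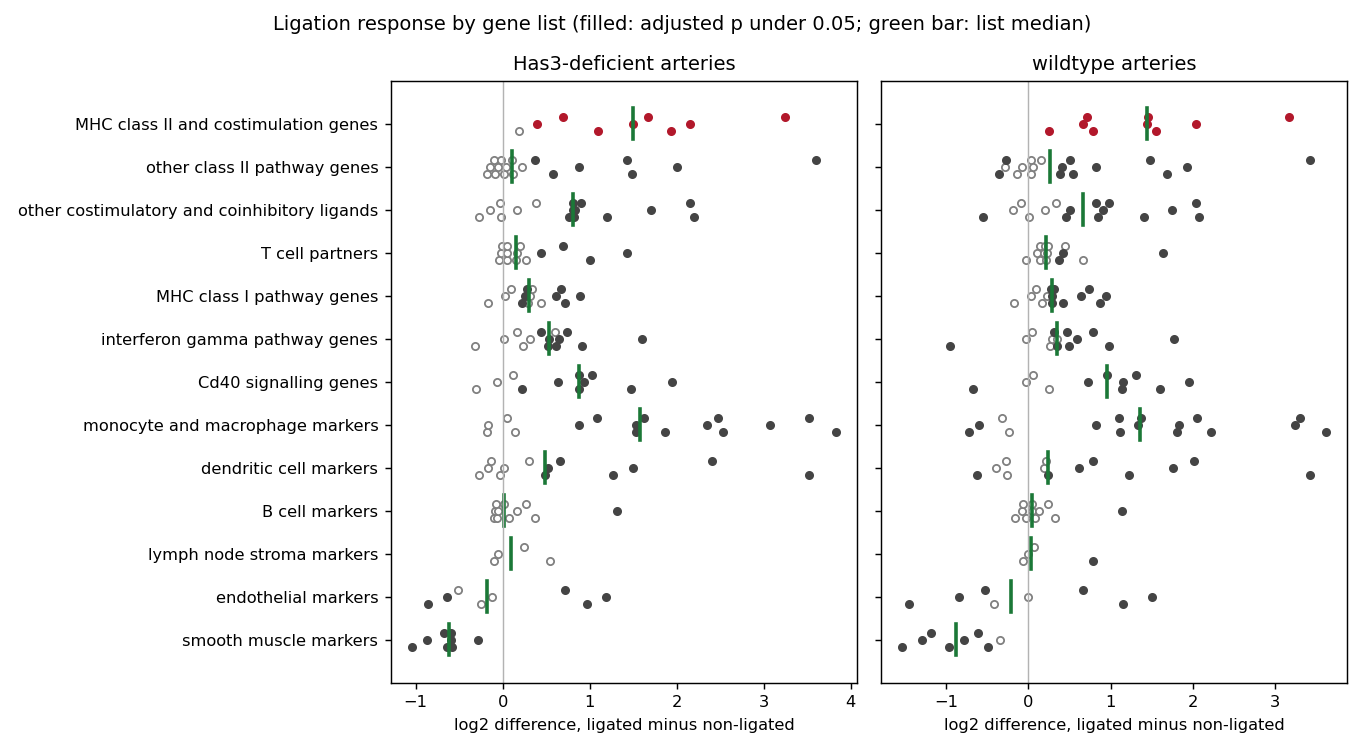
Log2 change after ligation of each member and each gene of the lists, in Has3-deficient (left) and wildtype (right) arteries; points are genes, filled where the adjusted p is under 0.05, and green bars are list medians. The medians of the members (1.499 in Has3-deficient and 1.44 in wildtype arteries) and the macrophage markers (1.58 in Has3-deficient and 1.35 in wildtype arteries) lie above the other lists shown, and smooth muscle markers lie below 0.

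Within groups, the members varied together to differing degrees. Deviations from the group means over 15 arrays correlated at r = 0.917 for H2-Aa and H2-Eb1, 0.827 for H2-Aa and H2-Ab1 and 0.819 for H2-Ab1 and H2-Eb1. With wildtype non-ligated array 3, the lowest array for all 3, dropped from the correlation, these were 0.807, 0.546 and 0.502. The group mean still included that array, so these values do not fully remove its influence. Cd80 and Cd86 had r = 0.839, while Cd40 had 0.03 with Cd80 and -0.039 with Cd86. H2-DMa had r = 0.883 with Cd86 and 0.797 with Cd80. The B cell marker mean had r = -0.87 with the mean of the class II chains, and the same array 3 was the highest of its group in it at 0.22. How far the r of -0.87 rests on that array was not tested. By the same measure the genes most like the class II chains were Ube2q2, Mcm8, Fam91a1, Erich4, Zfp72, Tmem199, Fancm and Nr4a1, with r of 0.803 to 0.883. With array 3 dropped in the same way, its group mean unchanged, r was 0.641 to 0.819. Those most like the mean of Cd80, Cd86 and Cd40 were Mrpl10, Mrpl38, Hccs, Cebpb, Glrx5, Stxbp2, Lars2 and Flad1, with r of 0.883 to 0.929. Both sets of most similar genes were picked as the highest r among many genes, and the r that chance would give was not worked out. These correlations are descriptions over arrays that share groups and processing.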

How the data were processed

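Carotid artery RNA (100 ng per sample) had been amplified, labelled and hybridised to 15 Affymetrix arrays, per the labels' protocols. Log2 values of 33793 probe sets make up the table the authors deposited, centred on each probe set's median over the arrays, as the values themselves show. The base of 2 was read from the range of the values. How the authors normalized the arrays, with which software and which annotation, is not given in the sources used here; array medians lie between -0.0014 and 0.0167. Precision is limited by the number of arrays, 3 or 4 per group.

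Of the probe sets 23521 list 1 gene symbol, 1814 several and 8458 are not listed in the annotation table. Probe sets of 1 gene were averaged, giving 22180 genes. All 4 groups were fitted in 1 model with limma 3.58.1 in R 4.3.3 (11 residual and 2.69 prior degrees of freedom), and calls were made below 0.05 after Benjamini-Hochberg adjustment across the 22180 genes. The contrasts were ligation in each genotype, genotype in each artery state and their interaction. The fit was tested on simulated data. Tables and plots were made with pandas 2.3.3 and matplotlib 3.10.9.

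The members and the 14 gene lists (163 of 176 genes measured) were chosen with earlier results of these data known. From each list up to 3 passing genes in each direction with the lowest p are named; H2-Ea, H2-DMb2 and Ctss were added after their values were seen. The likeness rule named Cd74, which has no probe set of its own, so it was applied to H2-Aa, H2-Ab1 and H2-Eb1. Same-numbered wildtype arrays had correlated deviations of 0.0282 to 0.164, not all above 0.1, so numbers were not taken to pair samples. For same-numbered non-ligated arrays of the 2 genotypes they were -0.401 to -0.235. Such values cannot show whether ligated and non-ligated arteries came from the same mice. The alternatives tried were robust moderation, array weights, quantile normalization, a common median, all probe sets, only the 2 groups compared, a replicate block, each array left out in turn and, chosen after seeing the data, 4 arrays high in neuron markers left out. Background correction, a filter on dim probes and scan date need values that the centred table does not hold.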

Additional observations from a re-analysis of the deposited data

Results flagged for a closer look

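In 2 of 27 sets of 4 arrays (9 members in the 3 groups of 4), 1 array lay far from the others by Dixon's criterion, and chance flags about 1 in 20. None of the 3 such sets of the probe set listing Cd74 and Mir5107 had such an array. H2-Aa was highest in wildtype ligated array 1, at 1.22, with a gap of 0.870 of the group's range, although the whole group spans only 1.11 to 1.22. H2-Ab1 was lowest in wildtype non-ligated array 3, at -1.36, with a gap of 0.842 of the range. That array was also the lowest of its group for H2-Aa, H2-Eb1, H2-DMa, Cd80 and Cd86, and the ligation calls of these members in wildtype arteries kept their side of the threshold without it.

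The probe set that lists both Cd74 and Mir5107 stands outside the measured members, and was higher after ligation by 1.72 in Has3-deficient and by 1.39 in wildtype arteries on the log2 scale.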

How the results depend on the processing

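Over the alternatives, 7 to 8 of 9 members passed for ligation in Has3-deficient arteries and 8 to 9 in wildtype arteries, and 0 passed in the genotype and interaction comparisons. Of 999 single-gene values, 962 kept direction and side of the threshold, 16 lost their call and 21 changed sign, none of which had passed. The lost calls were those of H2-DMb1 in wildtype arteries and of Cd40 in Has3-deficient arteries. With each array left out in turn, whether the call was kept or lost, H2-DMb1 ran from 0.21 to 0.30 and Cd40 from 0.32 to 0.46. With the replicate block, 8 members passed for ligation in wildtype arteries, where H2-DMb1 had 0.25 (limma adjusted p = 0.0756), and 0 passed for genotype in non-ligated arteries; no other member call changed. Signs changed after quantile normalization for H2-Ab1 between genotypes in ligated arteries (0.021) and for Ciita in the interaction (0.044). Without the 4 arrays high in neuron markers, which leaves 1 Has3-deficient non-ligated array assumed to vary like the other groups, the genotype difference in non-ligated arteries was 0.088 for H2-Ab1 and -0.047 for Cd40, and the interaction -0.15 for H2-Ab1 and 0.071 for Ciita. With single arrays left out, Cd40 in non-ligated arteries ran from -0.089 to 0.095, and the interaction from -0.013 to 0.44 for H2-Ab1, from -0.089 to 0.049 for Ciita and from -0.079 to 0.24 for Cd80. Over all genes, 19 passed between genotypes in non-ligated arteries. The count was 43 after quantile normalization, 9 with array weights and 0 with the replicate block or with only the 2 groups in the fit. The causes of these changes were not tested. Background correction, a filter on dim probes and scan date as a block could not be run on centred values.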

Other observations

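Some class II pathway genes passed after ligation in wildtype arteries only, picked here after their values were seen. H2-Eb2 had 0.12 ± 0.09 in Has3-deficient and 0.51 ± 0.08 in wildtype arteries (SE, limma adjusted p = 0.413 and 0.000224), H2-Oa 0.22 and 0.41, and H2-Ob, which with H2-Oa restrains H2-DM, 0.11 and 0.38. None passed in the interaction, so that a difference between the genotypes is not shown.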
